A study of Sus scrofa with 8 samples.

Results

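Thioredoxins, peroxiredoxins, superoxide dismutases and the enzymes that use glutathione were followed in the whole blood of 8 miniature pigs. The members are the 58 probes, of 43603 on the array, whose annotation text contains peroxiredoxin, thioredoxin, glutaredoxin, superoxide dismutase, glutathione peroxidase, glutathione reductase or glutathione S-transferase. They fall into 10 families: 18 probes for glutathione S-transferases, 10 for thioredoxin domain proteins, 5 each for thioredoxins, peroxiredoxins, glutathione peroxidases and superoxide dismutases, 3 each for thioredoxin reductases and thioredoxin interacting protein, and 2 each for glutaredoxins and glutathione reductase. The animals were female Clawn miniature pigs, 8 to 9 months old, which the labels call conventional. The 4 control animals ate the standard dry feed, and the 4 SDW animals ate dry feed, water and shochu distilled water mixed 1:1:1 by weight. Shochu is a spirit distilled in Japan; what the liquid contains is not stated in the labels. Feeding lasted 12 weeks by the design text, but 14, 15, 16 and 17 weeks by the descriptions of replicates 1, 2, 3 and 4, so that by the latter account animals of 1 diet differed in time. Blood was drawn into tubes that preserve RNA, and each animal gave 1 single-colour array.

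These proteins keep thiol groups reduced and remove peroxides. Thioredoxin passes electrons from NADPH, by way of thioredoxin reductase, to peroxiredoxins and other disulfides, and glutathione does the same for glutathione peroxidases and glutaredoxins, with glutathione reductase restoring it. Superoxide dismutases turn superoxide into hydrogen peroxide, and glutathione S-transferases join glutathione to reactive compounds. In blood, red cells and phagocytes are known for a high demand on these systems.

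Each probe is a DNA strand of 60 bases. The sequences of some members are shown. They are thioredoxin (TXN) for the diets, GPX2 and the superoxide dismutase copper chaperone CCS for the slides, and GPX4 for its even level. The membrane transferase MGST3 is shown as a tested transferase, and the alpha class transferase LOC396850 for a single animal. The TXNIP probes are shown because they overlap. Capitals mark the 17 bases that end TXNIP probe A and begin TXNIP probe B. Each printed probe holds at least 1 reading frame without a stop over all 60 bases.
TXN probe B: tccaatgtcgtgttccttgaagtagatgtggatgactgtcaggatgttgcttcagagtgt
GPX2: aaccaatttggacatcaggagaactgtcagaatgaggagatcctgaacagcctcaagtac
CCS: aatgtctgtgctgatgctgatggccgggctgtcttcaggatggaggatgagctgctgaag
GPX4 probe B: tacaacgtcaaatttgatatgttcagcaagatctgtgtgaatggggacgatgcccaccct
MGST3: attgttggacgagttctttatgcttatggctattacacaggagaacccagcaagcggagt
LOC396850 probe A: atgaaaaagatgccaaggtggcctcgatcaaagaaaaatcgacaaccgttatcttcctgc
TXNIP probe A: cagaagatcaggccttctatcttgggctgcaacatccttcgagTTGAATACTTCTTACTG
TXNIP probe B: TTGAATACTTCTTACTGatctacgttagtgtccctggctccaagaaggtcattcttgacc

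Names are not equally firm. Of the 58 probes, 23 stand for a pig transcript, 23 for an assembled sequence (contig) matched to a mammalian protein, and 12 for a contig matched to a protein of another kind of organism. Such matches can be short: the contig named for a soybean glutathione reductase covers 4% of that protein, the one for a Plasmodium glutathione S-transferase 5%, the one for a Propionibacterium thioredoxin 8% and the one for an Arabidopsis glutaredoxin-like protein 14%. These 4 names are kept as labels of the probes only. The rule also takes in proteins that are not redox enzymes, among them TXNIP, which binds thioredoxin, and CCS, which loads copper into superoxide dismutase. LOC396850 probe A is listed for a pair of pig transcripts, so signal from related alpha class genes cannot be separated there.

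A probe was tested when it was well above background, by the scanner's flag, on at least 4 of the 8 arrays. This left 30 of 58 members (51.7%), against 39.8% of all probes, and 23 of the 30 were well above background on all 8 arrays. Of the probes for pig transcripts 15 of 23 were tested, of the contigs with a mammalian match 11 of 23, and of the others 4 of 12. Never above background were 22 members, among them both probes for thioredoxin reductase 1, the peroxiredoxin-1 contig, the secreted superoxide dismutase SOD3 and the epididymal peroxidase GPX5. The other 6 were above background on 1 to 3 arrays.

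The share of probes well above background ran from 35.2% to 43.5% over the arrays. A level here is the log2 spot intensity minus the array's own 75th percentile, and precision is limited by having 8 arrays. The arrays lay on 3 slides, read from the file headers. Slide 1 held control 3, SDW 2 and SDW 3, slide 2 held control 2, control 4 and SDW 1, and slide 3, scanned on another day, held control 1 and SDW 4. Slide 3 and its scan day cannot be told apart, slides 1 and 2 were scanned on the same day, and each animal lies on 1 slide only. The labelled tissue was checked by markers found by symbol: all 7 neutrophil genes on the array were measured in all 8 animals, as were 6 of 7 T cell and all 5 platelet genes, while neither of the 2 erythroid genes was.

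The animal SDW 4 stood apart from the other 7. Of 19 genes typical of liver on the array, 17 were well above background in SDW 4 and 5 to 7 in each other animal, and 10 were so in SDW 4 alone. Transthyretin (TTR), a carrier of thyroid hormone, lay at 1.79 in SDW 4 and from -4.61 to -3.62 in the rest. APOA1, the main protein of high density lipoprotein, lay at 2.14 against -5.01 to -3.14, and CYP2E1, an ethanol-oxidising enzyme, at 1.27 against -5.17 to -4.03. The linear levels of the list summed to 43.1 in SDW 4 and to 5.76 to 22.0 in the others. This list was chosen after the data were seen, and its part in the results was not tested; values without SDW 4 are given below.

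The alpha class glutathione S-transferases, which are abundant in liver, were above background in this animal only. GSTA2 lay at -3.88, -2.90, -2.36 and -2.81 in controls 1 to 4, at -3.23, -3.26 and -2.73 in SDW 1 to 3, and at 2.31 in SDW 4. Against the mean (-2.35) of the lowest signals well above background on the other 7 arrays, SDW 4 was at least 25.3-fold higher. LOC396850 probe A gave -0.69 in SDW 4 and -5.03 to -2.62 in the rest. Probe B gave -0.09 against -5.05 to -3.23. Against the same mean, SDW 4 was at least 3.14-fold higher on probe A and 4.77-fold higher on probe B. For a single animal the bound can be smaller, as the lowest such signal was -1.75 on control 1. All 3 probes failed the filter, so they enter no comparison of the diets, and without SDW 4 none of them was above background in any animal. These bounds rest on 1 animal and have no replicate check.

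The comparison of the diets asks how blood transcripts differ in pigs given shochu distilled water. No member passed: 0 of 30 had an adjusted p under 0.05 in limma with Benjamini-Hochberg adjustment over 17352 probes, where 0 (0%) of all probes passed. At an unadjusted p under 0.05 there were 0 of 30 members, against 251 (1.45%) of all probes. In no member did the 4 control and the 4 SDW values fail to overlap, against 0.985% of all probes. By sign 15 of 30 were higher in SDW animals, against 52.9% of all probes, and the median difference was -0.003 against 0.018 on the log2 scale. The median size of the difference, whatever its sign, was 0.18 for members and 0.17 for all probes.

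The design leaves room for differences of some size. The differences ran from -0.71 to 0.50, and all 30 intervals of 95% held 0. For 17 members the interval lay within 1 log2 unit of 0 on either side, so that a 2-fold difference lay outside it. In data simulated for this comparison over 17352 probes, 3 of 100 probes changed by 1 log2 unit were called and 75 of 100 changed by 2.

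Thioredoxin itself, the small protein that reduces disulfides in the cytosol, had the most negative differences of the members. TXN probe A gave 4.17, 4.43, 4.88 and 4.92 in controls 1 to 4 and 3.78, 4.81, 4.06 and 3.66 in SDW 1 to 4. In 3 of the 4 SDW animals the level was under that of every control, but SDW 2 lay within the control range. The difference was -0.52 (SE 0.31, 95% interval -1.21 to 0.17, limma unadjusted p = 0.126, adjusted p = 1). TXN probe B gave 3.35, 4.70, 4.94 and 5.17 in controls and 3.82, 4.87, 3.87 and 2.75 in SDW animals. Its groups also overlapped, with control 1 and SDW 4, the animals of slide 3, the lowest of their diets, and its difference was -0.71 (SE 0.50, 95% interval -1.83 to 0.41, limma unadjusted p = 0.186, adjusted p = 1). The probes lay on the same side of their mean in 8 of 8 animals.

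Within slides the SDW animals had the lower TXN mean each time. SDW minus control was -0.44, -0.89 and -0.51 on slides 1, 2 and 3 for probe A and -0.57, -1.11 and -0.60 for probe B. With slide as a fixed block the differences were -0.62 (limma unadjusted p = 0.0376) and -0.77 (limma unadjusted p = 0.0228), and neither passed after adjustment (adjusted p = 0.732 for both). In that fit 3 of 30 members, both TXN probes and GPX2, had an unadjusted p under 0.05, against 6.59% of all probes. Without SDW 4 and without the block, the TXN differences were -0.38 and -0.35. The Propionibacterium thioredoxin contig gave 0.40 (SE 1.26, 95% interval -2.41 to 3.20), and -0.57 without control 1; it was not well above background in control 1 or SDW 4. The contig matched to bovine thioredoxin (43% of the protein) went the other way at 0.31 (SE 0.26, limma unadjusted p = 0.269), and its levels from 0.16 to 0.98 in controls overlapped those from 0.58 to 1.12 in SDW animals.

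Of the regulators and reductases of thioredoxin, TXNIP is an arrestin that binds reduced thioredoxin and restrains glucose uptake. TXNIP probe B gave 4.11, 4.03, 3.69 and 4.25 in controls and 3.80, 4.08, 4.12 and 3.46 in SDW animals. The groups overlapped almost fully, at a difference of -0.15 (95% interval -0.69 to 0.38, SE 0.24), and TXNIP probe A gave -0.09 (95% interval -0.64 to 0.45). The probes share 17 bases and were on the same side of their mean in 6 of 8 animals. For thioredoxin reductase, the NADPH-dependent selenoenzyme, only the thioredoxin reductase 3 contig was tested. It was above background on 5 arrays, with levels from -2.40 to -1.46 in controls and -3.21 to -1.37 in SDW animals and a difference of -0.18 (SE 0.40).

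Peroxiredoxins reduce peroxides with a reactive cysteine. PRDX6, which draws on glutathione and also has phospholipase activity, gave on probe B 1.63, 2.06, 1.65 and 1.68 in controls and 2.07, 2.29, 2.02 and 1.93 in SDW animals. The SDW values lay above 3 of the 4 controls and overlapped through control 2, and the difference was 0.32 (SE 0.21, 95% interval -0.15 to 0.80, limma unadjusted p = 0.158, adjusted p = 1). On PRDX6 probe A the difference was 0.18 (SE 0.32, 95% interval -0.54 to 0.89), with SDW 1 at 6.16 above all other animals (4.77 to 5.42). The PRDX6 probes were on the same side of their mean in 5 of 8 animals, so they did not rank the animals alike. PRDX5, a peroxiredoxin of mitochondria and peroxisomes, lay from 4.19 to 4.70 in controls and 4.35 to 4.64 in SDW animals, with a difference of 0.00 (95% interval -0.47 to 0.47).

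The 4 tested glutathione peroxidase probes had differences from -0.40 to -0.01. GPX1, the cytosolic selenoenzyme that removes hydrogen peroxide, gave 9.06, 9.22, 10.25 and 9.63 in controls and 8.92, 9.56, 9.98 and 9.31 in SDW animals. The ranges nearly coincided, at -0.09 (SE 0.33, 95% interval -0.83 to 0.64). GPX4, which reduces lipid peroxides in membranes, had a small spread between animals (SD within a diet 0.18 and 0.17): probe A lay from 5.31 to 5.73 in controls and 5.36 to 5.75 in SDW animals, and probe B from 3.14 to 3.59 and 3.12 to 3.45. Its differences were -0.03 (95% interval -0.51 to 0.45) and -0.01 (95% interval -0.48 to 0.46), and the centred values of the probes were never more than 0.17 apart.

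GPX2, a glutathione peroxidase best known from the gut lining, varied more. It gave 1.53, 0.25, 1.88 and 0.96 in controls and -0.82, 1.04, 1.49 and 1.32 in SDW animals. SDW 1 was the lowest and the other 3 SDW animals lay within the control range, for a difference of -0.40 (SE 0.53, 95% interval -1.59 to 0.79, limma unadjusted p = 0.474). With slide as a fixed block it was -0.80 (limma unadjusted p = 0.0222, adjusted p = 0.732). Within slides it was -0.62, -1.42 and -0.21 on slides 1, 2 and 3, the slide of SDW 1 being the second of these. Without SDW 1 and without the block the difference was 0.13.

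Among the superoxide dismutase probes, the manganese superoxide dismutase contig (98% of the matched protein), for the mitochondrial enzyme, lay from 0.70 to 1.65 in controls and 0.48 to 1.22 in SDW animals, a difference of -0.28 (SE 0.27, limma unadjusted p = 0.317). The copper-zinc superoxide dismutase contig gave -0.02 (SE 0.51) and CCS gave -0.15 (SE 0.56). For these last probes the animals of slide 3 were the highest in each diet.

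The glutathione S-transferases that were tested covered a narrow span of differences, from -0.01 to 0.25 over 6 probes. GSTO1, an omega class enzyme that also reduces dehydroascorbate, gave 3.88, 3.96, 4.29 and 3.60 in controls and 4.09, 4.17, 4.12 and 3.94 in SDW animals. The SDW values lay inside the control range, at 0.15 (SE 0.22, 95% interval -0.35 to 0.64). The membrane enzyme MGST3 gave 0.03 (95% interval -0.58 to 0.65), and MGST1, which conjugates glutathione and reduces peroxides, gave 0.25 (95% interval -0.66 to 1.16). Of the 18 probes in this family 6 were never above background.

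Contigs made up the remaining families. The thioredoxin domain containing 13 contig (62% match), for a thioredoxin-like protein of the endoplasmic reticulum membrane, gave 0.50 (SE 0.47, limma unadjusted p = 0.310), and a second thioredoxin domain containing contig gave 0.45 (SE 0.43, limma unadjusted p = 0.314). Without control 1 these were 0.11 and 0.00. Without SDW 4 the first was 0.83, and with slide as a fixed block 0.50 (limma unadjusted p = 0.0844, adjusted p = 0.732). Within slides it gave 0.76, 0.08 and 0.71 on slides 1, 2 and 3. The second was not well above background in control 1 or SDW 4, and within slides it gave 0.01, 0.04 and 1.44 on slides 1, 2 and 3. The thioredoxin-like 4B contig, for a protein of the splicing machinery, gave -0.24 (SE 0.26), and the ERp44 contig, for a chaperone that retains proteins in the secretory pathway, gave 0.00 (95% interval -0.58 to 0.58). The contig for glutaredoxin-related protein 5, which serves iron-sulfur cluster assembly in mitochondria, gave -0.07 (SE 0.47), the Arabidopsis glutaredoxin-like contig 0.46 (SE 0.63) and the soybean glutathione reductase contig 0.45 (SE 0.52). With an array left out in turn the Arabidopsis contig ran from 0.10 to 0.95 and the soybean contig from 0.01, without control 1, to 0.76. All of these had overlapping diets.

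The levels of several members differed by slide. A limma F-test of slide, with diet in the model, called 7 of 30 members (23.3%) against 11.2% of all probes at an adjusted p under 0.05. Slide 3 lay wholly outside slides 1 and 2 for 11 of 30 members (36.7%), 2 higher and 9 lower, against 32.7% of all probes, which is near the background. The count of 7 rests on few arrays, as does the 1947 over all probes. It was 3 (983 of all probes) without control 2, 4 (1197) without control 3 and 4 (1317) without control 4. Without SDW 1, 2 and 3 it was 5 (1401), 7 (1846) and 8 (1815). Without control 1 or SDW 4 slide 3 held 1 array, so no count is given.

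CCS gave 2.95 and 2.45 in control 1 and SDW 4, the slide 3 animals, and from 0.48 to 1.58 in the other 6. The mean of slide 3 was thus higher by 1.77, and CCS passed the F-test over the 3 slides (limma F-test, adjusted p = 0.0145). That test asks whether the slides differ in any way, not whether slide 3 differs from the others. The copper-zinc superoxide dismutase contig (55% match), for the enzyme that CCS loads with copper, gave -0.57 and -0.23 on slide 3 and -2.27 to -1.44 in the 4 other animals where it was well above background. It was not so in control 3 and SDW 3, both of slide 1, and with their measured values the test passed (limma F-test, adjusted p = 0.00883). Both of these probes were high in the same pair of animals, 1 of each diet. Within slides, SDW minus control was 0.06, -0.41 and -0.50 for CCS.

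Other members were low on slide 3, and the p-values given for them are again those of the F-test over all 3 slides. TXN probe B was 3.35 and 2.75 there and 3.82 to 5.17 elsewhere, a difference of -1.51 (limma F-test, adjusted p = 0.0342), whereas TXN probe A differed by -0.56 and did not pass (adjusted p = 0.255). The thioredoxin domain containing 13 contig differed by -1.45 (adjusted p = 0.0294) and the soybean glutathione reductase contig by -1.49 (adjusted p = 0.0330), both in the limma F-test. The Propionibacterium thioredoxin contig was not well above background on slide 3 and gave -0.09 to 1.53 in the other 6 animals. Only a bound on the means can be given. The mean of the others was at least 5.35-fold above slide 3, taken at the mean lowest signal well above background there (-1.875). A single animal can have a smaller bound. The test on the measured values passed (limma F-test, adjusted p = 0.00171). GPX2 passed too (adjusted p = 0.0282), with its lowest values, -0.82, 0.25 and 0.96, on slide 2.

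Slide accounted for a median of 50% of the variance of the 30 members and diet for 4.4%, against 44.7% and 5.0% over all tested probes. Over those well above background on all 8 arrays the slide share was 39.4% for members and 43.7% for all. Each share was computed without the other term. Slide has more levels than diet and takes a larger share even by chance, so the slide and diet shares cannot be compared directly. The median standard deviation within a diet was 0.51 for the members and 0.43 for all tested probes; over those well above background on all 8 arrays it was 0.36 and 0.38. Marker genes of blood cells also differed by slide: the median of slide 3 minus the others was -0.89 for 4 eosinophil, basophil and mast cell genes, -0.72 for 5 platelet, -0.42 for 6 T cell, -0.41 for 5 monocyte, -0.35 for 3 NK and cytotoxic cell and 0.06 for 7 neutrophil genes, 0.56 for the 1 B cell gene and 1.12 for 6 liver genes. Between the diets, 7 of 7 neutrophil genes were lower by sign in SDW animals (median -0.42), against 47.1% of all probes, as were 3 of 3 NK and cytotoxic cell genes (median -0.57) and the 1 B cell gene (-0.51). Of the eosinophil, basophil and mast cell genes 3 of 4 were higher by sign (median 0.68), and the medians were 0.10 for platelet, 0.05 for monocyte and -0.09 for T cell genes, with 0 called in any list. Summed neutrophil levels ran from 1011 to 1432 in controls and 776 to 1334 in SDW animals. Their part in the results was not tested, and in whole blood fewer cells of a type and less RNA per cell cannot be told apart.

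The wider pathway was read from lists of genes, each from its measured probe of highest mean level, and 0 genes passed. The genes that supply NADPH or make glutathione had 5 measured of 18 listed, 5 higher by sign in SDW animals with a median of 0.08, against 0.018 for all probes. With slide as a fixed block 2 were higher and 3 lower by sign, and another measured probe of 1 of the 5 genes gave -0.50. The pentose phosphate enzymes TKT and PGD had 0.23 (SE 0.27) and 0.04 (SE 0.27). Of the NRF2 pathway and other antioxidant genes 6 of 22 were measured, 3 higher and 3 lower by sign, with a median of -0.05. Heme oxygenase 1 (HMOX1), which degrades heme, had 0.57 (SE 0.43, limma unadjusted p = 0.210) and 0.22 without control 4, with -0.30, 1.79 and -0.14 within slides 1, 2 and 3. Catalase (CAT) had 0.34 (SE 0.43) and HMOX2 had -0.27 (SE 0.55).

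The genes that make oxidants had 3 measured of 13, 1 higher and 2 lower by sign. NCF1, a subunit of the phagocyte NADPH oxidase, had -0.76 (SE 0.69), the endothelial nitric oxide synthase NOS3 -0.32 (SE 0.36) and the oxidase subunit CYBA 0.13 (SE 0.28). For NCF1 the slide 3 animals, control 1 at 4.00 and SDW 4 at 3.54, were the highest of their diets. With an array left out in turn the NCF1 difference ran from -1.38 to -0.23, the latter without control 1. With slide as a fixed block it was -0.83. Of 15 genes for selenoproteins and their synthesis 4 were measured, 2 higher and 2 lower by sign. SELENOP, the plasma carrier of selenium made largely in liver, had 0.83 (SE 0.47, limma unadjusted p = 0.111), with SDW 4 at 2.64 and SDW 1 to 3 at 0.87, 0.84 and 0.46. Without SDW 4 it was 0.35. SEPHS2, which makes selenophosphate, had -0.22 (SE 0.25) and SELENOK -0.05 (SE 0.23). None of the 10 genes listed for disulfide formation in the endoplasmic reticulum was found by symbol on the array.

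Leaving out SDW 4 called 0 of 30 members. The differences of the Propionibacterium contig, the Arabidopsis contig and the copper-zinc superoxide dismutase contig then moved most, from 0.40 to 1.62, 0.46 to 0.95 and -0.02 to -0.48, and that of CCS from -0.15 to -0.54, while GPX4, GPX1, GSTO1 and PRDX5 moved by 0.06 or less. In SDW 4 the Propionibacterium and Arabidopsis contigs were not well above background.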

How the data were processed

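Per the labels' protocols, RNA came from whole blood kept in PAXgene tubes, and Cy3-labelled cRNA was made from 0.5 ug of RNA by linear amplification. Linear spot intensities stand in the deposited scanner files, written by Agilent Feature Extraction (10.1.1.1 in the file headers but 9.5.3.1 in the submitters' processing notes). Background was subtracted and arrays were not normalized to each other, per the file headers. The authors' value table holds intensities whose scale and centring are unstated, and 7 of its 8 columns matched another replicate of the same diet, so replicate names follow the scanner files. After dropping control and outlier spots and averaging the spots of a probe, each log2 intensity (from the deposited values) was set relative to the array's 75th percentile. A probe counted as well above background on an array when most of its spots were so flagged; of several averaging rules, the one taken gave the same number of tested probes as earlier work on these data.

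The test of diet was limma 3.58.1 under R 4.3.3 (lmFit, then eBayes, two-sided, no covariate, Benjamini-Hochberg adjustment over tested probes, threshold an adjusted p of 0.05), and slides by an F-test with diet in the model; the fit was tested on simulated data. Alternatives were normexp (offset 50), quantile and median normalization, other filters, outlier spots kept, slide and replicate blocks, the value table, array weights, a variance trend and each array left out. Symbols came from RefSeq accessions, symbols, synonyms or gene numbers of the pig gene table for 2988 probes. The genes named were the probe of highest mean level in each family, the 12 members of smallest unadjusted p, the 6 of largest standard deviation and, in each pathway list, up to 3 genes of smallest p; other members are given as ranges or after their values were seen, as are the printed sequences and the short names of contigs. The members and lists were chosen with earlier results of these data known. Without a genome, no probe positions are given. A further gene that the naming rule would give is not reported here.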

Additional observations from a re-analysis of the deposited data

Results flagged for a closer look

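Of 68 groups of 4 animals examined, 7 held an animal whose gap to its nearest neighbour, as a share of the range, exceeded Dixon's 95% critical value. Chance gives this in about 1 in 20 groups that were not picked by their values. The naming rule took in members of largest standard deviation, and GSTA2 was named after its values were seen. The count of 7 therefore cannot be set against that rate. Among the controls, control 1 stood above the others for CCS (2.95), HMOX2 (2.29) and NCF1 (4.00) and below them for the soybean glutathione reductase contig (1.25). Control 2 stood above the others for PRDX6 probe B (2.06). Among the SDW animals, SDW 1 stood above the others for the glutaredoxin-related protein 5 contig (-1.29), and SDW 4 for GSTA2 (2.31). The glutaredoxin-related protein 5 contig was not well above background in SDW 3 or SDW 4, so that gap rests partly on unmeasured values. Control 1 lay on slide 3, and for CCS, NCF1 and HMOX2 the other slide 3 animal, SDW 4, was also the highest of its diet, at 2.45, 3.54 and 1.72.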

How the results depend on the processing

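No member passed for diet under any alternative run. Over all probes 0 passed except without slide 3 and with SDW 4 left out and slide as a fixed block, where 1 passed each time: a contig weakly matched to a Caenorhabditis elegans protein, higher in SDW animals by 5.21 and 5.20, well above background on 4 arrays and named after its values were seen. The numbers of the labels gave deviations correlated at -0.17, 0.11, 0.33 and -0.38. Animals of the same number also shared the feeding time of the descriptions, and pair 3 a slide. These values therefore do not tell what a number stands for. The replicate block called 0 of 30 members and 0 of all probes (239 at an unadjusted p under 0.05). The numbers of the value table gave 0.28, 0.25, 0.51 and 0.64, each over 0.1; a block on them, added after the data were seen like the fit without SDW 4 under the slide block, called 0 of 30 members and 0 of all probes. At an unadjusted p under 0.05 it gave 904 probes and 2 members, TXN probe A (limma unadjusted p = 0.0374) and TXN probe B (limma unadjusted p = 0.0197), both with adjusted p = 0.895. By the value table's numbers, pairs 1, 3 and 4 lay on slides 1, 2 and 3, each pair on the same slide. By the labels' numbers only pair 3 did so. For such pairs a shared number and a shared slide cannot be told apart, in the correlations or in the block. Which numbering holds is not settled by the files. The slide count of 7 (1947 of all probes) was 2 (748) with normexp and 3 (1075) with a filter at 1 array. It was 3 (1302) without a filter and 4 (1624) without the diet term. With an array of slide 1 or 2 left out it ran from 3 (983) to 8 (1815). The cause was not tested.

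Of 489 values for the 31 named genes under the alternatives, apart from those that leave out each array in turn or take 1 slide, 468 kept their sign and 21, over 8 genes, changed it; none changed its call, and the cause was not tested. These were the glutaredoxin-related protein 5 contig (0.01 with normexp, 0.23 with a fixed and 0.11 with a random slide block, 0.21 without slide 3, 0.67 without SDW 4 under the block), the copper-zinc superoxide dismutase contig (0.02 quantile, 0.01 median, 0.14 fixed and 0.07 random slide block, 0.02 in the value table, 0.07 without SDW 4 under the block), the thioredoxin reductase 3 contig (0.02 with normexp, 0.17 without slide 3, 0.22 without SDW 4 under the block), TXNIP probe B (0.01 without slide 3, 0.03 without SDW 4 under the block), CCS (0.01 with array weights), PGD (-0.07 fixed and -0.02 random block), CAT (-0.17 without SDW 4 under the block) and SELENOK (0.02 with normexp).

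Within slides 9 of the 31 kept their sign on all 3. The sign turned on slide 1 for the glutaredoxin-related protein 5 contig (1.14), GSTO1 (-0.15), the soybean contig (-0.24), PRDX6 probe A (0.00), CCS (0.06), TXNIP probe B (0.41), the thioredoxin reductase 3 contig (0.87), the bovine thioredoxin contig (-0.05), the copper-zinc contig (0.04), TKT (-0.38), PGD (-0.41), HMOX1 (-0.30), CAT (-0.23) and CYBA (-0.07). It turned on slide 2 for the glutaredoxin-related protein 5 contig (0.20), the thioredoxin-like 4B contig (0.30), the manganese contig (0.33), the copper-zinc contig (0.10), CAT (-0.10), SEPHS2 (0.27) and SELENOK (0.16). It turned on slide 3 for GPX1 (0.25), the Arabidopsis contig (-0.32), the Propionibacterium contig (-0.35), the copper-zinc contig (0.34), PGD (-0.26), HMOX1 (-0.14), NOS3 (0.28) and CYBA (-0.01).

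With each array left out in turn the sign turned for GPX1 (-0.27 to 0.14), GPX2 (-0.70 to 0.13), PRDX6 probe A (-0.10 to 0.35), CCS (-0.54 to 0.35), the copper-zinc contig (-0.48 to 0.31), the Propionibacterium contig (-0.57 to 1.62), the glutaredoxin-related protein 5 contig (-0.54 to 0.19), the thioredoxin reductase 3 contig (-0.42 to 0.19), CAT (-0.03 to 0.63), CYBA (-0.03 to 0.32), HMOX2 (-0.67 to 0.23), PGD (-0.13 to 0.21) and SELENOK (-0.14 to 0.05). The TXN differences stayed negative, from -0.76 to -0.38 on probe A and -1.11 to -0.35 on probe B. Signal over background limits 7 tested members to 4 to 6 arrays.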

Other observations

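Among probes outside the tested set, the number well above background in a single animal ran from 135 in SDW 3 to 689 in SDW 2, with 458 in SDW 4. Only in SDW 4 did these include genes of the liver list, 10 of 19. Besides those already described, vitamin D binding protein (GC) lay at 1.54 in SDW 4 and from -5.01 to -3.63 in the rest, and the fatty acid binding protein FABP1 at 0.43 against -4.85 to -1.65. Prothrombin (F2) was instead highest in SDW 2, at 3.36, with SDW 4 at 0.22 and the other animals from -4.24 to -3.11.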
